A study of Homo sapiens with 6 samples.

Results

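The genes CDK6, SATB1, MEF2C, MEIS1 and FLT3, which KMT2A fusion proteins are known to keep switched on in leukaemia, were followed in THP-1 cells with and without a hairpin against RKIP. They are 5 of the 14884 genes to which the expression array gave a value under a single gene name. They were taken by name, and each was read from its brightest probe over the 6 arrays. MEF2C had a further probe, which is also described. THP-1 is an established line of human acute monocytic leukaemia. RKIP, the Raf kinase inhibitor protein, is the product of PEBP1. One group of 3 arrays held RNA from THP-1 cells transduced with the RKIP shRNA in a lentiviral U6 hairpin vector. The other 3 arrays held RNA from control THP-1 cells transduced with the same vector without a hairpin. Both groups were selected and kept in 1.5 µg/mL puromycin, so each is a drug-selected population carrying a vector. The labels call the arrays of a group biological replicates but do not say whether they came from separate transductions, so every p-value below reflects array-to-array spread, part of which may be technical.

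KMT2A is a histone H3 lysine 4 methyltransferase that binds unmethylated CpG-rich promoters through its CXXC domain. In leukaemias with a KMT2A rearrangement its amino-terminal part, which keeps this domain, is fused to a partner such as MLLT3, as in THP-1 cells. The partner brings in the elongation machinery and DOT1L, and a set of genes normally active in early progenitors stays on. Among these, MEIS1 encodes a homeodomain cofactor of HOXA9, MEF2C a MADS-box transcription factor, SATB1 a chromatin-organising DNA-binding protein, CDK6 a cyclin D-dependent kinase of the G1 phase, and FLT3 a receptor tyrosine kinase of progenitors.

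The promoters of the 5 genes are shown because CpG dinucleotides are what the CXXC domain recognises. Each is the 300 bases from 250 before to 50 after a transcription start, from the RefSeq annotation of GRCh38.p14, written 5′ to 3′ on the strand of the gene, and CpG dinucleotides are in capitals. For genes with several starts the window shown is the one listed first: chr7:92836524-92836823 on the minus strand for CDK6, chr3:18445543-18445842 on the minus strand for SATB1, chr5:88883135-88883434 on the minus strand for MEF2C, chr13:28100527-28100826 on the minus strand for FLT3 and chr2:66434875-66435174 on the plus strand for MEIS1.
CDK6: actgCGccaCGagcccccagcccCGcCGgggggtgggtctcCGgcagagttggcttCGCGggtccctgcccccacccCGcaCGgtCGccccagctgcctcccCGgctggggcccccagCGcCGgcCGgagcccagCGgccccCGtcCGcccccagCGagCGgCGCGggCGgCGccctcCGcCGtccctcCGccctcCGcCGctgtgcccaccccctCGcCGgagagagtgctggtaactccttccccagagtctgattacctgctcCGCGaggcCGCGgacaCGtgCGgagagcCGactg
SATB1: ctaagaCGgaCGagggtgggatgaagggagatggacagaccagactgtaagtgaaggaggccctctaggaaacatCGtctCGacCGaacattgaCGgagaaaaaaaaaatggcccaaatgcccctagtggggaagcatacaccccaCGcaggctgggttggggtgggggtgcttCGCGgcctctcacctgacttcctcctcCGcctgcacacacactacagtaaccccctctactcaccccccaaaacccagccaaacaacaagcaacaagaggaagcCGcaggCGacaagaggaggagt
MEF2C: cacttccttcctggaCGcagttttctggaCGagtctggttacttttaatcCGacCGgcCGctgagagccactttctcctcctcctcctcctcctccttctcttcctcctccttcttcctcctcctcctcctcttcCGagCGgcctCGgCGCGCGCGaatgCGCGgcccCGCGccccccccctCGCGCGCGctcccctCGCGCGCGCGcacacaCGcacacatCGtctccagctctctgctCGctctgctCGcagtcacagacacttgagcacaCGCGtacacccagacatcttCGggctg
FLT3: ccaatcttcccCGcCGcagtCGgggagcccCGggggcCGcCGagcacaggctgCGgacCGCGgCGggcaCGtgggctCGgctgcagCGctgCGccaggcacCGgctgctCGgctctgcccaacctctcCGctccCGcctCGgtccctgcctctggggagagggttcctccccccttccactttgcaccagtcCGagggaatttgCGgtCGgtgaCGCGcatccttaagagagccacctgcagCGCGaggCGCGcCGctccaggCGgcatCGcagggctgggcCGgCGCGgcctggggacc
MEIS1: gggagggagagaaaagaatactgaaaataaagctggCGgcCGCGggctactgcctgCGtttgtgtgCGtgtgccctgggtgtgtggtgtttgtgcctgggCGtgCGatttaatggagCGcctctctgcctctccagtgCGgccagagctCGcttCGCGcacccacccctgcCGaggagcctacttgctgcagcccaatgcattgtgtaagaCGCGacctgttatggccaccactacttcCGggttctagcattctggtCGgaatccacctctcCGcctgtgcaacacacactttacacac

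The CDK6 window held 37 CpG dinucleotides, that of FLT3 34, that of MEF2C 32, that of MEIS1 18 and that of SATB1 12. Over the first-listed windows of 27305 genes the median was 14, with quartiles of 3 and 28. The CDK6, FLT3 and MEF2C windows shown therefore lay above the upper quartile, MEIS1 between the median and the upper quartile, and SATB1 just under the median. The start chosen matters for this count. SATB1 had 4 windows with 6 to 33 CpG dinucleotides and MEF2C had 7 windows with 1 to 32, while CDK6 had 2 with 29 and 37. No source used here says which start these cells use. In the windows shown, the MEIS motif TGACAG, the HOX-PBX motif TGATTTAT and the MEF2 motif core TAAAAATA had 0 matches on either strand. Of the 27305 genes, 15.9%, 0.883% and 2.26% held these letters, in the same order. The ETS motif CCGGAAGT had 1 match, in the MEIS1 window, and 4.44% of genes held it. The start matters for these motifs too. Among the MEF2C windows not shown, windows 3, 5 and 6 in listed order each held 1 MEIS match. Windows 6 and 7 held 1 and 2 MEF2 matches.

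The targeted gene was lower in the RKIP shRNA arrays. PEBP1 had log2 values of 8.25, 8.18 and 8.24 in RKIP shRNA cells, against 9.52, 9.77 and 9.75 in control cells, which left 36.4% of the control level. Medians over all rows of the table lay between 4.06 and 4.10 in the 6 arrays. A value under the median of all rows, 4.08, is called dim here, since no detection call was used and a low value may stand for no expression at all. Of 18 myeloid markers 9 had a named probe, of which 6 were higher, 1 was lower and 2 did not pass in RKIP shRNA cells. Thus 77.8% were called in the test described below, against 20.2% of all genes. With 1 array left out, 5 or 6 were higher and 0 or 1 lower. LYZ rose by 2.55 on the log2 scale, and the 1 lower marker, CSF3R, changed by -0.49. The summed signal of the 9 markers on the linear scale was 10704 to 11363 in RKIP shRNA arrays and 7740 to 8184 in control arrays. Most of this sum came from MPO, which averaged 13.03 in RKIP shRNA and 12.76 in control cells on the log2 scale. The MPO call was lost on leaving out any 1 array. The myeloid transcription factor gene SPI1 averaged 9.27 in RKIP shRNA and 8.78 in control cells, whereas CD14 was dim in both. The share of this change in the results below was not tested.

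Of the 5 genes, 4 were lower in RKIP shRNA cells and MEIS1 did not pass the test (limma over all 14884 genes, Benjamini-Hochberg adjusted p under 0.05). In the same fit 3010 genes, 20.2% of those tested, were called in either direction, and 1515 genes, 10.2%, were called lower. The 4 falls were close in size, from 0.42 to 0.54 on the log2 scale, against a median absolute change of 0.46 among all called genes and 0.15 among all genes. The groups did not overlap for the same 4 genes, as for 37.9% of all genes. With 3 arrays in each group, an exact two-sided permutation test of a single gene cannot go below p = 0.10, the value it gave for each of these 4 genes, and it gave p = 0.30 for MEIS1. In a bulk culture, fewer cells that express a gene and less of its RNA per cell cannot be told apart.

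**Figure D1:**
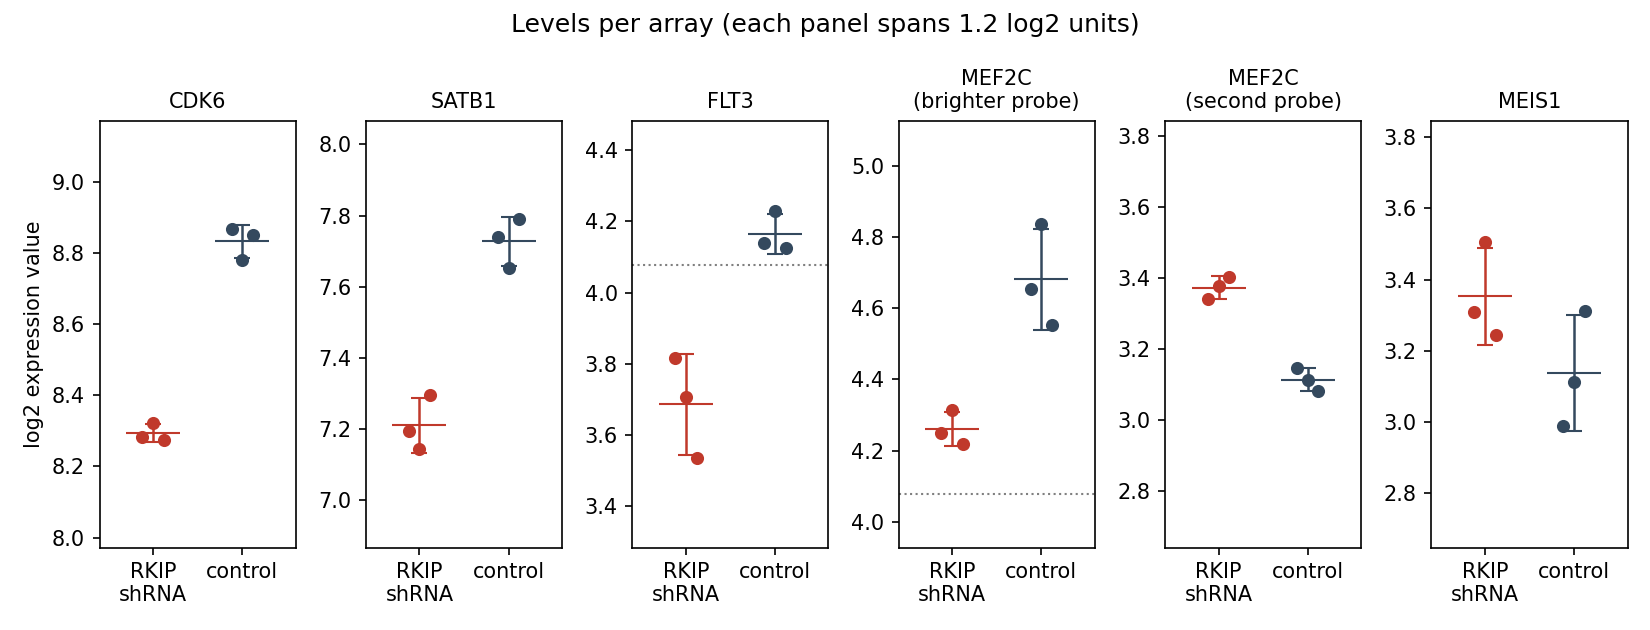
Log2 expression values of CDK6, SATB1, FLT3, both MEF2C probes and MEIS1 in each array, with RKIP shRNA on the left and control on the right of each panel; points are arrays, bars are mean ± SD (n = 3 each), every panel spans the same log2 range, and the dotted line marks the median of all rows, 4.08, where it falls in the panel. The groups are apart in all panels except MEIS1, and the second MEF2C probe runs opposite to the brighter one.

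CDK6 was lower in RKIP shRNA cells, with the smallest adjusted p of the 5 genes. This kinase pairs with D-type cyclins to phosphorylate RB1 in G1 and is known as a dependency of KMT2A-rearranged leukaemia. CDK6 had log2 values of 8.28, 8.32 and 8.28 in RKIP shRNA arrays, against 8.87, 8.78 and 8.85 in control arrays. The highest RKIP shRNA array lay well under the lowest control array, and the arrays of each group were within 0.1 of each other. CDK6 averaged 8.29 ± 0.03 in RKIP shRNA cells and 8.83 ± 0.05 in control cells (SD, n = 3 each), a log2 change of -0.54 (SE 0.06, limma adjusted p = 0.0020). This corresponds to 68.8% (95% interval 61.9% to 76.4%) of the level in control cells. The fall held its call in all 16 alternative settings, with adjusted p-values from 1.16e-05 to 0.0168. When all genes were ordered from the largest fall upward, CDK6 stood at place 670.

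SATB1 fell by a similar amount. The protein folds chromatin into loops at AT-rich anchor sequences and is best known from developing T cells. SATB1 had log2 values of 7.19, 7.14 and 7.30 in RKIP shRNA arrays, against 7.74, 7.65 and 7.79 in control arrays. All RKIP shRNA arrays were below all control arrays, with a gap wider than the spread inside either group. The means were 7.21 ± 0.08 in RKIP shRNA and 7.73 ± 0.07 in control cells (SD, n = 3 each), and the log2 change was -0.52 (SE 0.08, limma adjusted p = 0.0041), or 69.9% (95% interval 61.8% to 79.1%) of the level in control cells. It was called in all 16 alternatives, with adjusted p-values of up to 0.0321. None of the measured T cell markers was called lower. Of 8 listed T cell genes 5 had a named probe, of which CD5 was called higher at 0.39 and 4 did not pass. The share called, 20%, was close to the 20.2% of all genes. CD28, BCL11B and IL7R were dim in both groups. The summed linear signal of the 5 genes was 88.5 to 104 in RKIP shRNA arrays and 74.6 to 88.2 in control arrays. Among the fits that left out 1 array, CD5 kept its call only without control replicate 3, and its adjusted p reached 0.138.

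FLT3, the receptor of FLT3 ligand and a frequent site of activating mutations in acute myeloid leukaemia, was lower from a low level. Its log2 values were 3.82, 3.71 and 3.54 in RKIP shRNA arrays, against 4.14, 4.23 and 4.13 in control arrays. Every RKIP shRNA array was dim and every control array was only just above the median of all rows. FLT3 averaged 3.69 ± 0.14 in RKIP shRNA cells and 4.17 ± 0.06 in control cells (SD, n = 3 each). The log2 change was -0.48 (SE 0.09, limma adjusted p = 0.0102), with a 95% interval from -0.69 to -0.27. The call held on leaving out any 1 array, with a highest adjusted p of 0.0426. It did not hold in a test against a minimum absolute change of 0.2 on the log2 scale (adjusted p = 0.0858).

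MEF2C gave opposite readings from its 2 probes. MEF2C is known in myeloid progenitors as a driver of monocytic fate and in KMT2A-rearranged leukaemia as a gene linked to aggressive disease. The brighter probe, assigned to NM_001131005, had log2 values of 4.25, 4.31 and 4.22 in RKIP shRNA arrays, against 4.65, 4.84 and 4.55 in control arrays. All RKIP shRNA arrays were lower, and both groups lay little above the median of all rows. The means were 4.26 ± 0.05 in RKIP shRNA and 4.68 ± 0.14 in control cells (SD, n = 3 each), a log2 change of -0.42 (SE 0.09, limma adjusted p = 0.0166), or 74.7% (95% interval 64.6% to 86.4%) of the level in control cells. The call was lost without RKIP shRNA replicate 1 (adjusted p = 0.0565) or without RKIP shRNA replicate 3 (adjusted p = 0.0531).

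The second MEF2C probe, assigned to NM_002397, was dim in every array. It had log2 values of 3.34, 3.38 and 3.40 in RKIP shRNA arrays, against 3.15, 3.11 and 3.08 in control arrays. Here all RKIP shRNA arrays were higher. The log2 change was 0.26 (SE 0.06), with a limma adjusted p of 0.0304 over the 16098 probes with 1 gene name, of which 19.2% were called. This call was lost on leaving out any 1 of the 6 arrays, with adjusted p-values from 0.0624 to 0.102, and with the replicate number as a block (adjusted p = 0.0906). With the mean of both probes MEF2C changed by only -0.081 (adjusted p = 0.494).

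The disagreement itself was tested as the within-array difference between the brighter and the second probe. This difference was 0.91, 0.94 and 0.82 in RKIP shRNA arrays, against 1.51, 1.72 and 1.47 in control arrays. The groups did not overlap, and the difference changed by -0.68 (SE 0.08, 95% interval from -0.89 to -0.47). Adjusted over the 779 genes with at least 2 probes, limma gave an adjusted p of 0.0528, just above the threshold, and 4 of these genes, 0.513%, were called. In 76 of the 779 genes the probes were identical in every array. With only the 703 others in the fit, an alternative added after the data were seen, the adjusted p was 0.0439. The difference was not called on leaving out any 1 of the 6 arrays, with limma adjusted p-values from 0.0989 to 0.174. Changes of opposite sign, however small, were seen between the probes of 259 of the 779 genes or 33.2%. The difference between probes was called in 1 of these 259 genes, which was not MEF2C.

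The place of each probe in the numbering of the array was compared with the strand of the named genes numbered next to it, 20 rows to each side. MEF2C is on the minus strand of chromosome 5. For the brighter probe, 28 of the 30 neighbours with a known strand on that chromosome were minus-strand genes. For the second probe, 33 of 34 were plus-strand genes. The single probes of CDK6, SATB1, FLT3 and MEIS1 each had at least 31 neighbours on the strand of their own gene and at most 1 on the other. Of 11372 named probes with at least 10 such neighbours, 412, or 3.62%, lay mostly among genes of the other strand. The strand that a probe reads is not given in the sources used here, and the part of this in the MEF2C disagreement was not tested.

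MEIS1, the cofactor that HOXA9 needs for full leukaemic activity, was not called in either direction. Its log2 values were 3.31, 3.51 and 3.24 in RKIP shRNA arrays, against 2.99, 3.11 and 3.31 in control arrays. The groups overlapped and all 6 arrays were dim. The means were 3.35 ± 0.14 in RKIP shRNA and 3.14 ± 0.16 in control cells (SD, n = 3 each), a log2 change of 0.22 (SE 0.11, limma adjusted p = 0.235). The 95% interval ran from -0.05 to 0.48, but a probe this dim may not be able to show a fall. MEIS1 passed in 0 of 15 alternatives, with adjusted p-values from 0.126.

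**Figure D2:**
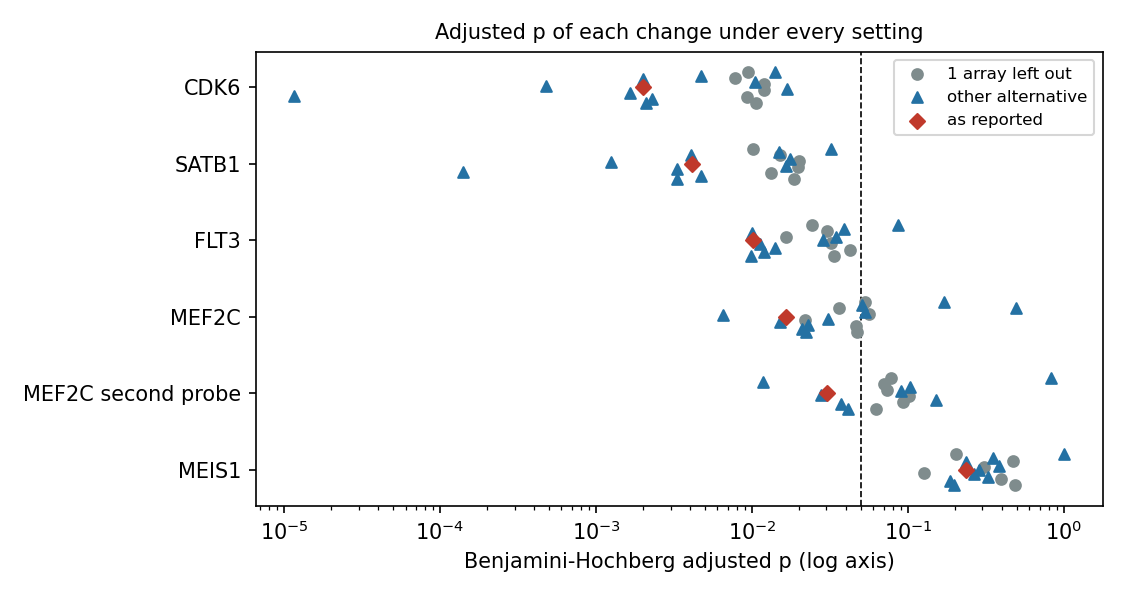
Benjamini-Hochberg adjusted p (log axis) of the change of each gene or probe as reported (diamonds), with 1 array left out (circles) and in the other alternatives (triangles); the dashed line is at 0.05. All points of CDK6 and SATB1 are left of the line, FLT3 has 1 to the right, MEF2C and its second probe are spread across it, and all points of MEIS1 are to the right.

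The genes with the most similar profiles were taken as the 3 protein-coding genes, at or above the median brightness, with the smallest root mean square distance between log2 profiles, each centred on its own mean, over the 6 arrays. For CDK6 these were ZNF333, SIAH1 and KDM1B, at distances of 0.026, 0.032 and 0.034 and with log2 changes of -0.52, -0.52 and -0.55. SIAH1 encodes a ubiquitin ligase and KDM1B a histone demethylase. For SATB1 they were TRIO, DOCK11 and NMD3, at 0.021, 0.027 and 0.033. For MEF2C they were ZNF577, NUDT4 and ABHD6, at 0.034, 0.040 and 0.043. For FLT3 they were PECR, ZNF624 and TTBK2, at 0.043, 0.043 and 0.047. For MEIS1 they were HPN, CRB3 and MED19, at 0.036, 0.039 and 0.046, and none of the 3 was called. Since all these genes were picked by profile over the same arrays, similar changes and calls follow from the choice. How many profiles lay as close as these was not counted, but a wider distance held many. Within a distance of 0.1 lay 332 genes for CDK6, 359 for SATB1, 197 for MEF2C, 174 for MEIS1 and 150 for FLT3, of about 8434 genes searched.

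The wider set of fusion targets was described with a list of 28 genes, of which 20 had a named probe. The list includes the 5 genes above and was chosen with earlier results of these data known. Of these 20, 8 fell, 1 rose and 11 did not pass, so 45% were called, against 20.2% of all genes. In each of the 6 fits that left out 1 array, 7 of the 20 were called. Their median log2 change was -0.22, against 0.02 over all genes. Without the 5 genes above, 4 of the 15 others fell, 1 rose and 10 did not pass, with a median of -0.14. Over all genes 10.2% fell and 10.0% rose. The 4 others that fell were HMGA2, BCL2, JMJD1C and RUNX2. HMGA2, an architectural chromatin protein of fetal cells, changed most, averaging 5.31 ± 0.19 in RKIP shRNA and 6.18 ± 0.12 in control cells (SD, n = 3 each), a log2 change of -0.87 (limma adjusted p = 0.00316). BCL2, the anti-apoptotic mitochondrial protein, averaged 10.38 ± 0.04 in RKIP shRNA and 10.75 ± 0.02 in control cells and changed by -0.36 (adjusted p = 0.00777).

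The other falls lost their calls more often when arrays were left out. The histone demethylase family gene JMJD1C changed by -0.28 and, of the fits that left out 1 array, kept its call only without RKIP shRNA replicate 3, and the transcription factor gene RUNX2 changed by -0.26 and lost its call on leaving out any 1 array, with adjusted p-values of up to 0.128. The gene that rose was LMO2, a bridging factor of GATA and TAL1 complexes in progenitors, at 7.15 ± 0.06 in RKIP shRNA and 6.67 ± 0.09 in control cells (SD, n = 3 each), a log2 change of 0.48 (limma adjusted p = 0.00573). CPEB2 had a log2 change of -0.50 with an adjusted p of 0.0514, and passed only without RKIP shRNA replicate 1 (adjusted p = 0.0299) among the fits that left out 1 array. MYB, the progenitor transcription factor gene, had -0.12 and PBX3, which encodes a partner of MEIS1 and HOXA9, had -0.14, and neither passed. ZEB2 at -0.19, ADCY9 at -0.25, IGF2BP3 at -0.13, EYA1 at -0.06, ZNF521 at -0.02, MBNL1 at 0.02 and PROM1 at 0.12 did not pass either. The HOXA genes of the list were among those not analysed here.

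**Figure D3:**
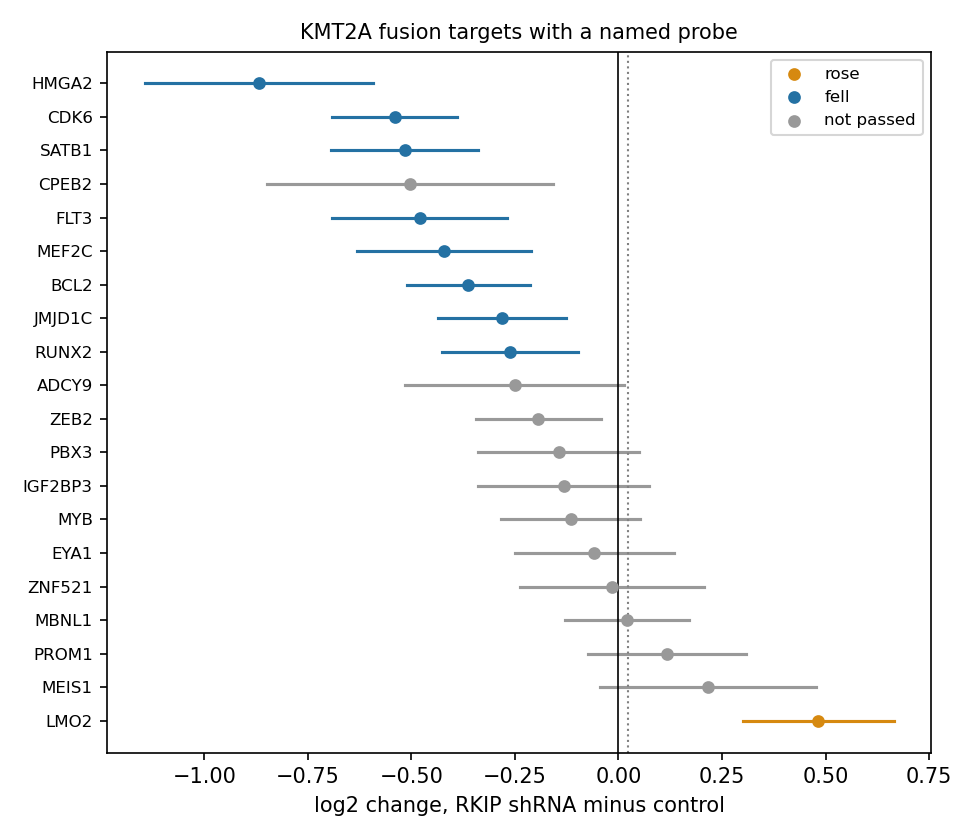
Log2 change, RKIP shRNA minus control, of the 20 fusion targets with a named probe, with 95% intervals; colours mark genes that rose, fell or did not pass, and the dotted line is the median of all genes, 0.02. The 8 genes that fell span -0.87 for HMGA2 to -0.26 for RUNX2, and LMO2 at 0.48 is the 1 that rose.

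Cofactors through which KMT2A and its fusions act went both ways. Of 28 listed cofactors 10 had a named probe, of which 3 rose, 1 fell and 6 did not pass, with a median of 0.07, so 40% were called, against 20.2% of all genes. MEN1 encodes menin and PSIP1 encodes LEDGF, which together tether the amino terminus of KMT2A to chromatin. MEN1 had log2 values of 8.20, 8.21 and 8.26 in RKIP shRNA arrays, against 7.67, 7.52 and 7.57 in control arrays, and rose by 0.63 (SE 0.07, limma adjusted p = 0.00157). PSIP1 averaged 8.52 ± 0.10 in RKIP shRNA and 8.98 ± 0.09 in control cells (SD, n = 3 each) and changed by -0.46 (adjusted p = 0.00964). The groups did not overlap for either gene, and the partners thus moved in opposite directions. DPY30 and RBBP5, core subunits of KMT2 methyltransferase complexes, rose by 0.39 and 0.32. RBBP5 lost its call without control replicate 3 (adjusted p = 0.0528). The elongation factor genes CDK9, CCNT1 and ELL had changes of 0.04, -0.06 and 0.10 and did not pass.

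Around CDK6, 15 of 21 listed genes of G1 control had a named probe, of which 7 rose, 2 fell and 6 did not pass, with a median of 0.25. Over all genes 10.0% rose and 10.2% fell. The rises depended on single arrays. They came to 3 without control replicate 2 or RKIP shRNA replicate 1. They came to 4 without control replicate 3 or RKIP shRNA replicate 2 or 3, and to 5 without control replicate 1. CCNE2, CDC25A and CCNE1, the last named after its values were seen, were called in all 6 of these fits. CDKN2A, which encodes the p16 inhibitor of CDK4 and CDK6, averaged 6.68 ± 0.07 in RKIP shRNA and 7.52 ± 0.18 in control cells (SD, n = 3 each) and changed by -0.84 (limma adjusted p = 0.00224). RBL2, a pocket protein related to RB1, changed by -0.40. CCNE2, cyclin E2, averaged 7.17 ± 0.23 in RKIP shRNA and 5.98 ± 0.24 in control cells and rose by 1.19 (adjusted p = 0.00284), and CDC25A, the phosphatase that activates CDK2, rose by 0.49. CDK4, the close relative of CDK6, had log2 values of 10.37 ± 0.02 in RKIP shRNA and 10.11 ± 0.03 in control cells, a change of 0.27 (adjusted p = 0.024) opposite in sign to that of CDK6. The CDK4 call was lost on leaving out any 1 array, with adjusted p-values of up to 0.0867. Whether the changes of CDK4 and CDK6 differ was not tested.

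Around FLT3, 16 of 22 listed genes had a named probe, of which 5 rose, 4 fell and 7 did not pass, with a median of 0.01, so 56.2% were called, against 20.2% of all genes. The 4 that fell had changes from -1.70 to -0.86, and the ligand of FLT3 was among them. FLT3LG had log2 values of 6.92, 6.71 and 6.72 in RKIP shRNA arrays, against 8.08, 7.71 and 7.84 in control arrays, a change of -1.09 (SE 0.11, limma adjusted p = 0.00128). STAT5A, a transcription factor activated by mutant FLT3, changed by -0.86, its target PIM1, a survival kinase, by -0.93, and GAB2, an adaptor of receptor signalling, by -1.70. The genes that rose, named after their values were seen, were the kinase genes PIM2, SYK and LYN at 0.61, 0.59 and 0.48, the adaptor gene GRB2 at 0.46, and the STAT5 feedback gene CISH at 0.32. CISH lost its call without control replicate 2 or 3 or RKIP shRNA replicate 1 or 3, with adjusted p-values of up to 0.115. The receptor relatives KIT, dim in both groups, and CSF1R had changes of -0.32 and 0.22 and did not pass.

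**Figure D4:**
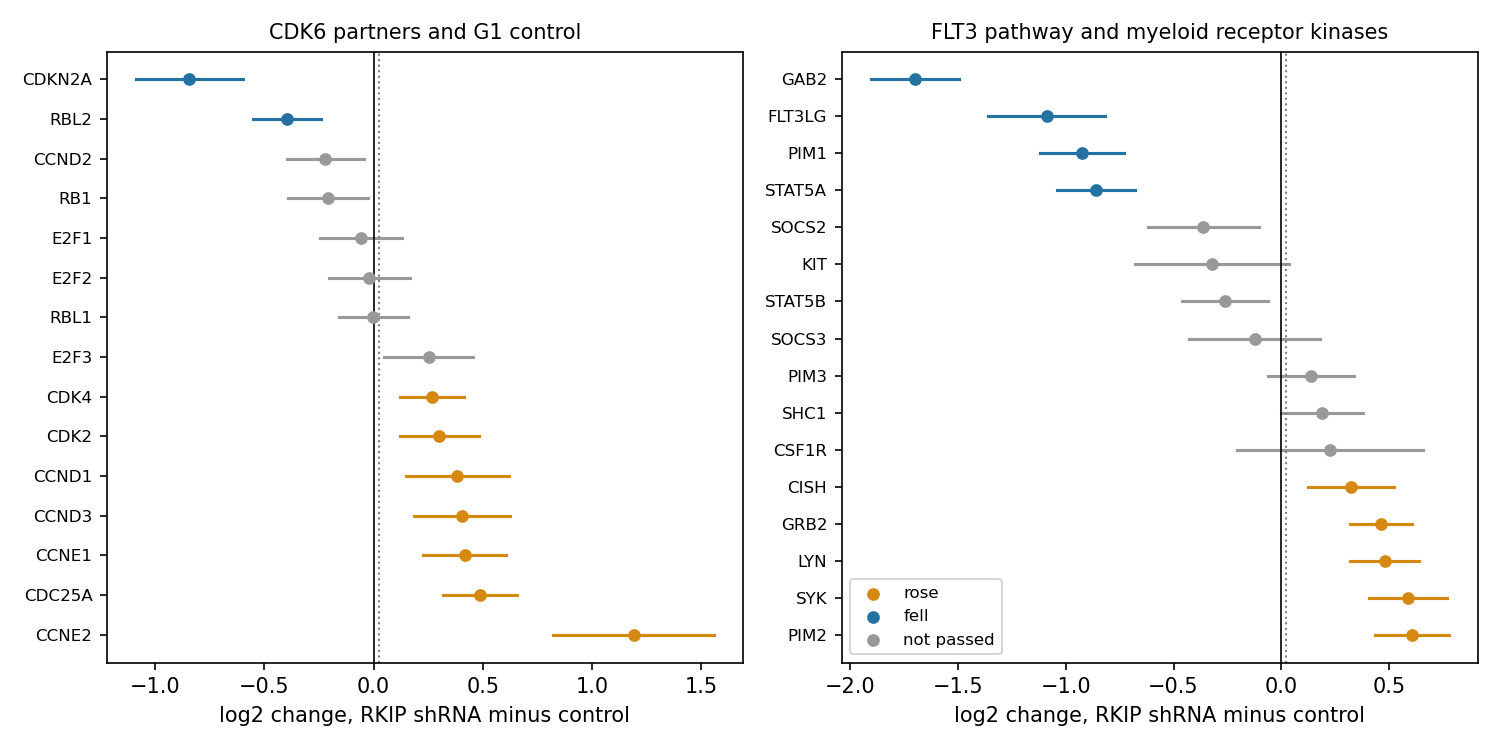
Log2 change, RKIP shRNA minus control, with 95% intervals, for 15 genes of G1 control (left) and 16 genes of FLT3 signalling and myeloid receptor kinases (right), coloured by rose, fell or not passed. CCNE2 at 1.19 and CDKN2A at -0.84 mark the ends on the left, and PIM2 at 0.61 and GAB2 at -1.70 on the right.

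Relatives and partners of the transcription factors were read from 3 lists. Of 12 measured genes of the MEF2 family and its regulators, 1 rose, 1 fell and 10 did not pass, with a median of -0.06, so 16.7% were called, against 20.2% of all genes. MEF2A at -0.13 and MEF2D at 0.04 did not pass. MAPK7, the kinase ERK5 that activates MEF2 proteins, rose by 0.39 (limma adjusted p = 0.00931), and the MEF2 repressor gene HDAC9 changed by -0.25, a call held only without RKIP shRNA replicate 2 among the fits that left out 1 array. B cell genes, among which MEF2C also acts, were measured by 3 of 7 markers, of which 33.3% were called, against 20.2% of all genes. VPREB3 changed by -0.38 and, among the fits that left out 1 array, kept its call only without control replicate 2. PAX5 and EBF1 did not pass. The means of VPREB3 and EBF1 over the 6 arrays lay under the median of all rows. The summed linear signal of the 3 markers was 116 to 131 in RKIP shRNA arrays and 131 to 144 in control arrays. The part of this in the MEF2C result was not tested.

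Of 5 measured SATB1 partners, HDAC1 rose by 0.27 and CUX1 changed by -0.28, and 3 did not pass. This made 40% called, against 20.2% of all genes. Both calls were lost in 5 of 6 fits that left out 1 array: HDAC1 was called only without RKIP shRNA replicate 2, and CUX1 only without RKIP shRNA replicate 3. Of 14 measured genes of the MEIS, PBX and HOX list, 0 rose, 3 fell and 11 did not pass, with a median of 0.06, and 6 of them were dim in both groups. The share called, 21.4%, was close to the 20.2% of all genes. HOXB9 averaged 4.98 ± 0.22 in RKIP shRNA and 6.63 ± 0.10 in control cells (SD, n = 3 each), a change of -1.64 (limma adjusted p = 0.000437). MEIS3 changed by -0.76 and was called only without control replicate 2 or 3 among the fits that left out 1 array. DDIT3, a stress response factor that is no HOX partner but stands in this list, changed by -0.61. MEIS2 had a change of 0.23 and did not pass, and its second probe gave 0.03.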

How the data were processed

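Total RNA, 250 ng per array, was labelled with biotin and hybridised to Affymetrix Human Gene ST arrays, per the labels' protocols and the design description. The authors deposited 1 table of 53617 rows with log2 values, which its range, 0.72 to 14.0, shows. How the values were summarised and normalised, and on which genome build, is not given in the sources used here.

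The supplied array annotation gave 1 gene name to 16098 rows and left 37519 unnamed here. All named rows matched the RefSeq gene table of GRCh38.p14 by gene number. The brightest probe of each of 14884 genes was kept. RKIP shRNA minus control was fitted without a brightness filter with limma 3.58.1 under R 4.3.3, using lmFit and eBayes (7.01 total degrees of freedom), with Benjamini-Hochberg adjustment over all genes. Errors of changes are limma standard errors. The fits were tested on simulated data. The 3 arrays per group limit precision. No 2 arrays were duplicates: pairs shared 58 to 144 identical rows. No batch is in the labels.

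The genes and the 13 lists were chosen with earlier results of these data known. Named were the 5 genes, PEBP1, all measured fusion targets, in the other pathway lists up to 4 called genes with the smallest p, close relatives, and 3 genes of like profile each; cell type markers, the elongation factor genes and genes said to be named after their values were seen are outside this rule. Lists are given by counts and medians, with no set test. Figures were drawn with matplotlib 3.10.9.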

Additional observations from a re-analysis of the deposited data

How the results depend on the processing

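The 10 results were recomputed with arrays scaled by quantiles or by medians, a prior that was trended and robust, weighted arrays, replicate numbers as a block, only rows at or above the median brightness, all rows, probes averaged per gene, a t statistic without the shared prior, a minimum change of 0.2 and each array left out, where the setting could give a value. No direction reversed, and CDK6, SATB1 and MEIS1 stayed on their side of the threshold in every alternative run. MEF2C at -0.42 lost its call with all rows (adjusted p = 0.0526), the plain t statistic (0.0505) and the minimum change (0.169), and at -0.081 with the mean of probes. Its change was -0.48 to -0.34 with 1 array left out. FLT3 at -0.48 missed only the minimum change among its 15 alternatives. Its mean lay under the median brightness, so the fit of rows at or above that brightness gave it no value. The second MEF2C probe at 0.26 lost its call with the trended prior (0.151), the block (0.0906), all rows (0.103), the minimum change (0.825) and each array left out, where it changed by 0.24 to 0.28. The probe difference passed in 2 of 13 alternatives. These were array weights, at -0.67 (adjusted p = 0.0489), and only genes whose probes differ, at -0.68. It did not pass with the block (0.122), the plain t statistic (0.0902) or any 1 array left out (0.0989 to 0.174). The minimum change left 1132 genes, 2 of the 5 genes and 3 fusion targets called, against 3010, 4 and 9. With 1 array left out, 1987 to 2397 genes were called, the lowest without control replicate 2. The causes were not tested. Replicate numbers gave no pairing: deviations of same-numbered arrays correlated at -0.02 to 0.02 across genes; with the replicate block CDK6 stayed at -0.54. MEIS1 and the second MEF2C probe, in both groups, and FLT3, in RKIP shRNA cells, are limited by signal under the median of all rows. Rows without a name were not analysed here by gene, and of the listed HOXA genes only HOXA2 had a named probe.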
